A study of Mus musculus with 12 samples.

Results

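The extracellular matrix is the protein scaffold that cells secrete and attach to, and a basement membrane is its sheet-like form. The genes described here are 44 mouse genes for matrix and basement membrane proteins, chosen by name from what their proteins are known to do. Earlier results of these data were known when they were chosen. All 44 were found among the 55416 gene rows of the count tables, and 42 passed the filter on low counts that left 16221 genes for testing. By role they are 5 laminin chains, 5 basement membrane collagens, 9 proteins that link or fill the basement membrane, 10 matrix glycoproteins, 4 microfibril and latent TGF-beta binding proteins, 6 crosslinking or processing enzymes and 5 protease inhibitors. The genes below the filter were Col4a6, with 1 to 9 counts per library, and Tnc, with 2 to 12, and both are given as counts only.

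The cells were E14Tg2a.4 mouse embryonic stem cells, a pluripotent line grown with leukemia inhibitory factor and serum, and all of them carried Rpl31-FTA, a large-subunit ribosomal protein tagged with FLAG, a TEV protease site and an AviTag. All of them were transfected with plasmids for ALIBi, a proximity biotinylation system made of an N-terminal and a C-terminal fragment, and the groups differed in whether ALIBi was targeted to the cytosol or to the endoplasmic reticulum (ER). Biotinylated ribosomes were purified from lysates with cycloheximide, which holds ribosomes on mRNA, and poly(A) RNA was sequenced from the TEV eluate (ribosome-bound RNA) and from an aliquot of lysate kept before purification (whole-cell RNA). Ribosomes purified after targeting to the ER or the cytosol are called ER-marked and cytosol-marked here. That gives 4 groups of 3 biological replicates: ER ribosome-bound, cytosol ribosome-bound, ER whole-cell and cytosol whole-cell. All come from 1 cell line and 1 tagged gene, and the labels do not name separate cultures or days for the replicates, so p-values measure only the spread between these samples. Each library held 21.1 to 26.9 M reads in genes. Levels are given in CPM, the counts of a gene scaled to library size with TMM factors.

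Matrix proteins are secreted. As background, a hydrophobic signal sequence near the start of the nascent chain is bound by the signal recognition particle, the ribosome is docked on the translocon of the ER membrane, and the chain enters the ER lumen while it is made. Laminins assemble there as trimers of an alpha, a beta and a gamma chain, and collagen chains are hydroxylated and wound into triple helices before export. In the early embryo the first basement membranes are built from laminin, collagen IV, nidogen and perlecan, and embryonic stem cells secrete these proteins in culture.

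The starts of 7 coding sequences are shown because a signal sequence, where a protein has one, is usually encoded there. These genes also mark the extremes of the results. Each run is the first 90 bases of the coding sequence of the principal transcript in GENCODE M21 (build GRCm38, reference strain), and capitals mark the codons of the most hydrophobic stretch of 11 residues found within the first 40, as far as it lies within the bases shown. Cst3 is the shortest of the 44, Spp1 the gene with the largest ER to cytosol ratio, Hspg2 the longest, Lama1 and Ltbp1 the genes lower on ER-marked ribosomes than in whole-cell RNA, Serpine2 the gene higher than whole-cell RNA on both kinds of ribosome, and Ltbp3 the gene with the smallest ER to cytosol ratio.
Cst3: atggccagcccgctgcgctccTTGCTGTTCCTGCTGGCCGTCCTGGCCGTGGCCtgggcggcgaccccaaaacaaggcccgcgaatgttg
Spp1: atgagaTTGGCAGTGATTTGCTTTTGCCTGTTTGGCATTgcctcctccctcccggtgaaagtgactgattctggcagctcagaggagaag
Lama1: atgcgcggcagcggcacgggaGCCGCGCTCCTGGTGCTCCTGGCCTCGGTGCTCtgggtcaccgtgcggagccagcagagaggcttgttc
Hspg2: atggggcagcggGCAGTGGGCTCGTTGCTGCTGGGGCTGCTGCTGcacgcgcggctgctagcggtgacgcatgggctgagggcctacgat
Ltbp1: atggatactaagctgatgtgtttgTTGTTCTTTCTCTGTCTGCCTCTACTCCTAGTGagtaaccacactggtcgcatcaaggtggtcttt
Serpine2: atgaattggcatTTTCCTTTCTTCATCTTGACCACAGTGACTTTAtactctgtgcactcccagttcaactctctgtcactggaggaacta
Ltbp3: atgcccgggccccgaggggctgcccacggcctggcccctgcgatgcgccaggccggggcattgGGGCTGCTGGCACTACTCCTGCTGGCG

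In 6 of these 7 the stretch began between codons 3 and 9. In Ltbp3 it ran from codon 22 to codon 32, so its last 2 codons lie beyond the bases printed. A late start was not particular to Ltbp3 among the 44: the stretch began at codon 27 in Lama5, 25 in Lamb2 and 21 in Lamc1, whose ER to cytosol ratios were 3.27-fold, 2.92-fold and 4.35-fold. The mean Kyte-Doolittle hydropathy of the stretch, a scale on which greasy residues are positive, was 3.24 in Cst3, 2.98 in Spp1, 2.91 in Lama1, 2.47 in Hspg2, 3.04 in Ltbp1, 3.06 in Ltbp3 and 1.91 in Serpine2. A segment of at least 2.0 was counted as an N-terminal hydrophobic segment. It was found in 41 of the 44 genes, or 93.2%, and in 2623 of 14098 tested coding genes, or 18.6%. The genes without it were Vcan at 1.94, Serpine2 at 1.91 and Pcsk6 at 0.56, and the lowest values that passed were 2.04 in Emilin1 and 2.06 in Fbn2. The count describes the reference sequence and does not show where a signal is cleaved.

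All 42 tested matrix genes were higher on ER-marked than on cytosol-marked ribosomes. Of these, 39 differed by more than 2-fold, and the median log2 ratio was 1.81 against 0.0 over all tested genes. Spp1, which encodes the secreted phosphoprotein osteopontin, had the largest ratio at 5.63-fold, and Ltbp3, a latent TGF-beta binding protein, the smallest at 1.30-fold. Of all 16221 genes, 29.1% were called higher in this comparison and 18.1% were called higher by more than 2-fold (edgeR's quasi-likelihood test, Benjamini-Hochberg adjusted p under 0.05). The 3 ER libraries lay above the 3 cytosol libraries for 42 of 42 matrix genes. Over all 16221 genes they lay above for 5032 and below for 4433, so groups did not overlap in either direction for 58.4%. Scaling to cytosolic proteins instead of all genes raised the median of all genes by 0.193 and gave 7162 higher and 991 lower genes in place of 4715 and 3983. The members' counts under it were again 42 higher and 0 lower.

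Against whole-cell RNA of the same targeting, 38 matrix genes were higher on ER-marked ribosomes, 2 were lower and 2 did not pass the test, where 32.5% of all genes were called higher and 30.6% lower. The median log2 ratio of the matrix genes was 1.15, against 0.01 over all genes. On cytosol-marked ribosomes 34 were lower than in whole-cell RNA, 1 was higher and 7 did not pass, where 33.0% of all genes were called lower and 20.8% higher. There the median was -0.62, against -0.05 over all genes, and 16 matrix genes were lower by more than 2-fold, as 3.66% of all genes were. This background is not matched for coding length, which has a median of 3624 nt in the matrix genes and 1383 nt over tested coding genes. Medians by class of coding length are given below. The whole-cell libraries thus lay between the ribosome-bound groups for most of these genes: 30 were higher on ER-marked and lower on cytosol-marked ribosomes, both calls passing the test. The share of all genes with this pair of calls was not counted, so the 30 have no background of their own. Among the 30, Col4a5, Mfge8, Timp2 and Cst3 lost the call on cytosol-marked ribosomes with DESeq2. The difference between both enrichments was tested as an interaction, and it was higher for 42 of 42 genes with a median of 1.71, where 24.8% of all genes were called higher. Libraries of ER-marked ribosomes and their whole-cell RNA did not overlap for 92.9% of the matrix genes and 65.6% of all genes. With cytosol targeting these shares were 83.3% and 58.6%. All these comparisons share libraries and are not independent of each other.

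Summed over the 44 genes, matrix mRNAs took 1.09% ± 0.0153 (SD, n = 3) of the counts in ER ribosome-bound RNA and 0.299% ± 0.0122 in cytosol ribosome-bound RNA. Their share of whole-cell RNA was 0.482% ± 0.00321 in ER-targeted and 0.476% ± 0.00794 in cytosol-targeted cells.

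**Figure D1:**
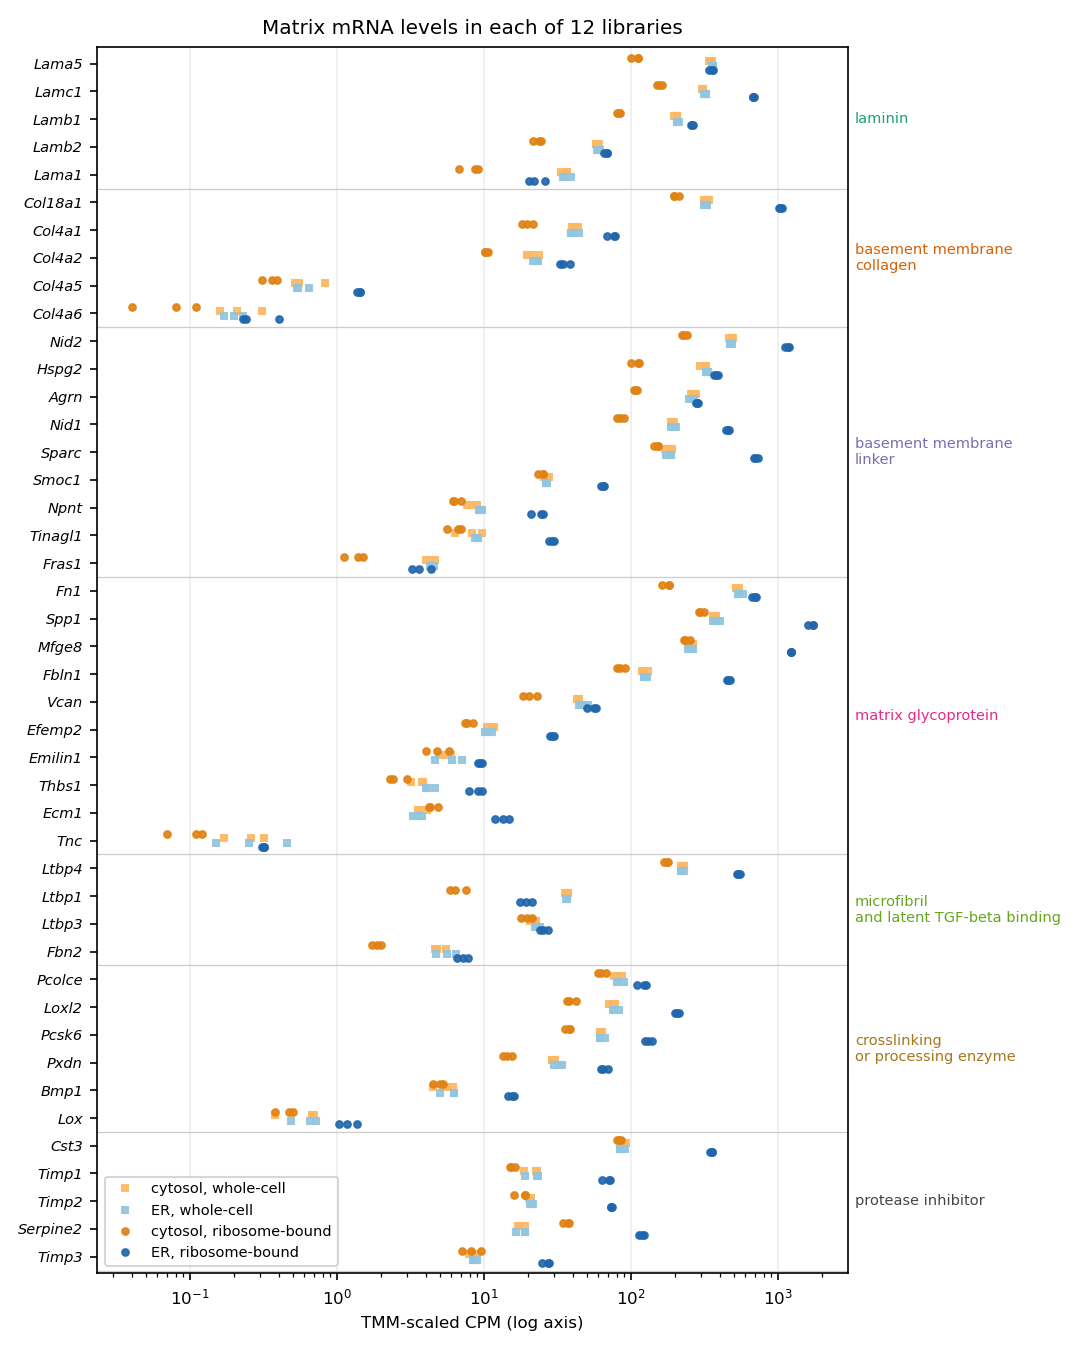
Level of each of the 44 matrix genes in each of the 12 libraries, in TMM-scaled CPM on a log axis, grouped by role. Squares are whole-cell and circles ribosome-bound libraries, orange for cytosol and blue for ER targeting. For most genes the ER ribosome-bound libraries lie highest, the cytosol ribosome-bound libraries lowest and both whole-cell groups together between them.

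Whole-cell RNA did not tell the targetings apart. With edgeR, 0 of 16221 genes were called, 634 had an unadjusted p under 0.05, and DESeq2 called 0 with 342. None of the 42 matrix genes was called, which is 0.0% as for all genes, 1 had an unadjusted p under 0.05, and DESeq2 called 0 with 0. Log2 ratios of ER over cytosol whole-cell RNA ran from -0.15 in Col4a5 to 0.23 in Thbs1. In RNA of bulk cultures, fewer cells that make a mRNA and less of it per cell cannot be told apart.

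Per kilobase of transcript, Spp1 was the most abundant matrix mRNA of whole-cell RNA, with a mean of 249 CPM per kb over 6 libraries (238 to 266). Mfge8, a milk fat globule glycoprotein that binds integrins, followed at 120 (115 to 125). Cst3, the secreted cysteine protease inhibitor cystatin C, at 102 (97.3 to 107), and Nid2, a nidogen, at 98.2 (94.7 to 101), overlapped. At the other end were Col4a5 at 0.0922, Tnc at 0.0378 and Col4a6 at 0.0320 CPM per kb. Of the 4 collagen IV genes described here, Col4a1 at 6.2 and Col4a2 at 3.41 CPM per kb were the more abundant.

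Laminin chains form the polymer that starts a basement membrane. All 5 were higher on ER-marked than on cytosol-marked ribosomes, with log2 ratios of 1.47 to 2.12, and all 5 were lower on cytosol-marked ribosomes than in whole-cell RNA, by 0.98 to 2.11 on the log2 scale. Against whole-cell RNA on ER-marked ribosomes they split: Lamc1, Lamb1 and Lamb2 were higher, Lama5 did not pass the test and Lama1 was lower.

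Lamc1, the gamma chain, stood at 690.1, 671.7 and 675.8 CPM in the ER ribosome-bound libraries and at 154.6, 150.3 and 163.6 CPM in the cytosol ribosome-bound ones. Its whole-cell libraries lay between, at 312.4, 324.9 and 321.5 CPM with ER and 310.2, 308.5 and 304.5 CPM with cytosol targeting. No 2 groups overlapped, the whole-cell ones lying next to each other with a difference that did not pass the test. ER-marked ribosomes exceeded cytosol-marked ones 4.35-fold (log2 2.12, SE 0.036) and whole-cell RNA 2.13-fold.

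Lama5, the main alpha chain here, was at 356.1, 359.9 and 341.4 CPM on ER-marked ribosomes and at 354.7, 361.2 and 362.4 CPM in whole-cell RNA of the same cells. These groups overlapped, and the log2 ratio was -0.03 (SE 0.037, adjusted p = 0.53 with edgeR), which became 0.19 and a call (adjusted p = 4.3e-05) when libraries were scaled to cytosolic proteins. On cytosol-marked ribosomes Lama5 was at 111.2, 100.5 and 112.0 CPM against 353.7, 347.2 and 336.7 CPM in whole-cell RNA, 3.21-fold lower.

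Lama1, the alpha chain of the earliest embryonic laminin, was lower than whole-cell RNA on both kinds of ribosome. ER-marked ribosomes held 21.9, 26.0 and 20.3 CPM and their whole-cell libraries 35.4, 39.0 and 34.6 CPM, a 1.59-fold difference (log2 -0.67, SE 0.075, adjusted p = 8.9e-10 with edgeR). Cytosol-marked ribosomes held 8.72, 6.78 and 9.09 CPM and their whole-cell libraries 36.4, 33.4 and 36.8 CPM, 4.32-fold more. The ER to cytosol ratio was still 2.77-fold (log2 1.47, SE 0.092). None of the groups compared in these sentences overlapped.

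The laminin chains therefore stood in other proportions on ribosomes than in whole-cell RNA. Per kilobase of transcript, the gamma chain over both alpha chains gave a ratio of 1.19 ± 0.0084 in ER whole-cell and 1.18 ± 0.015 in cytosol whole-cell RNA, 2.67 ± 0.099 on ER-marked and 1.99 ± 0.084 on cytosol-marked ribosomes (SD, n = 3). The lowest ribosome-bound library, at 1.9, was above the highest whole-cell library, at 1.20. Both beta chains over both alpha chains gave 1.36 ± 0.033 and 1.37 ± 0.012 in whole-cell RNA against 1.76 ± 0.069 and 1.83 ± 0.064 on ER-marked and cytosol-marked ribosomes. These ratios have no test of their own. The coding sequence is 9249 nt long in Lama1 and 11154 nt in Lama5, against 4821 nt in Lamc1, 5358 nt in Lamb1 and 5397 nt in Lamb2.

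Collagen IV is the network-forming collagen of the basement membrane, and collagen XVIII is the core of a proteoglycan at its edge. The 4 tested collagens were higher on ER-marked than on cytosol-marked ribosomes and than in whole-cell RNA, and all 4 were lower on cytosol-marked ribosomes than in whole-cell RNA.

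Col18a1 had the largest ER to cytosol ratio of the collagens. It was at 1020.9, 1024.0 and 1057.7 CPM on ER-marked and at 195.5, 197.0 and 211.6 CPM on cytosol-marked ribosomes, 5.13-fold apart (log2 2.36, SE 0.037). Whole-cell levels were 321.6, 313.4 and 330.7 CPM with ER and 325.5, 337.5 and 316.1 CPM with cytosol targeting, overlapping each other and neither ribosome-bound group. Col4a2 had the smallest ratio of the collagens, with 33.0, 34.3 and 38.3 CPM on ER-marked and 10.7, 10.2 and 10.2 CPM on cytosol-marked ribosomes (log2 1.76, SE 0.073). Its whole-cell libraries were at 23.3, 21.6 and 23.1 CPM and at 23.5, 19.5 and 21.0 CPM, again between the other groups.

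Col4a1 and Col4a2, whose products assemble with each other, were both higher than whole-cell RNA on ER-marked ribosomes and lower on cytosol-marked ones: their log2 ratios of ER-marked ribosomes over whole-cell RNA were 0.87 (SE 0.057) and 0.63 (SE 0.066), and of cytosol-marked ribosomes over whole-cell RNA -1.07 and -1.04. Whether these genes differ from each other was not tested. Per kilobase, Col4a1 over Col4a2 was 2.07 ± 0.28 on ER-marked ribosomes and 1.75 ± 0.10 in their whole-cell RNA, with overlapping libraries (1.75 to 2.27 and 1.64 to 1.85). The proteins of Col4a1, Col4a2, Col4a5 and Col4a6 hold 426 to 444 G-X-Y triplets, the collagen repeat. The cytosol-marked against whole-cell value of Col4a5, a gene with 8 to 36 counts per library, was -0.84 (SE 0.35, adjusted p = 0.041 with edgeR). This call was lost with DESeq2 (adjusted p = 0.10) and without any 1 library other than cytosol whole-cell replicate 1 or ER whole-cell replicate 1, falling to -0.56 without cytosol whole-cell replicate 3.

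Nidogens, perlecan (Hspg2) and agrin tie laminin and collagen networks together, and Sparc, a relative of Smoc1, binds collagens. All 9 genes of this role were higher on ER-marked than on cytosol-marked ribosomes, from 1.38 in Smoc1 to 2.42 in Nid1 on the log2 scale. Compared with whole-cell RNA, 8 were higher on ER-marked ribosomes and 8 lower on cytosol-marked ones.

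Nid1 was at 458.4, 462.9 and 444.7 CPM on ER-marked and at 84.3, 80.8 and 89.8 CPM on cytosol-marked ribosomes, 5.36-fold apart. In whole-cell RNA it was at 198.0, 202.0 and 188.5 CPM with ER and 195.1, 189.8 and 187.7 CPM with cytosol targeting. The second nidogen was more abundant: Nid2 had 1161.9, 1197.1 and 1124.2 CPM on ER-marked and 230.4, 222.0 and 240.0 CPM on cytosol-marked ribosomes. Its whole-cell libraries held 468.3, 484.7 and 480.6 CPM and 484.9, 492.3 and 462.0 CPM. Both nidogens shared the same order of groups, with log2 ratios over whole-cell RNA of 1.22 (SE 0.037) and 1.28 (SE 0.036) on ER-marked and -1.17 and -1.06 on cytosol-marked ribosomes.

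Hspg2, whose coding sequence of 13149 nt was the longest, was close to whole-cell RNA on ER-marked ribosomes. It had 376.1, 389.3 and 366.5 CPM there and 325.1, 332.2 and 329.6 CPM in whole-cell RNA, groups that did not overlap and differed 1.15-fold (log2 0.20, SE 0.040, adjusted p = 4.2e-05 with edgeR). On cytosol-marked ribosomes it had 112.9, 100.4 and 111.0 CPM against 326.0, 320.3 and 294.7 CPM in whole-cell RNA, 2.90-fold lower. Fras1, a long protein of the embryonic basement membrane under skin, has 12030 nt of coding sequence and was rare. It had 4.34, 3.26 and 3.60 CPM on ER-marked ribosomes and 4.29, 4.57 and 4.33 CPM in whole-cell RNA, where 1 ER ribosome-bound library lay among the whole-cell ones. The log2 ratio was -0.24 (SE 0.14, adjusted p = 0.14 with edgeR) and passed as lower without ER ribosome-bound replicate 1 (-0.36, adjusted p = 0.049). Cytosol-marked ribosomes held 1.38, 1.12 and 1.50 CPM of it against 4.01, 4.30 and 4.64 CPM.

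Smoc1, a short member of the role with 1302 nt, had 64.1, 65.3 and 62.0 CPM on ER-marked ribosomes and 25.3, 25.2 and 23.3 CPM on cytosol-marked ones. Whole-cell levels were 26.6, 26.4 and 26.7 CPM and 25.7, 27.5 and 26.9 CPM, so cytosol-marked ribosomes held it close to its whole-cell level (log2 -0.12, SE 0.055, adjusted p = 0.075 with edgeR). Sparc, with 906 nt, had log2 ratios over whole-cell RNA of 1.96 (SE 0.040) on ER-marked and -0.28 (SE 0.041) on cytosol-marked ribosomes. Agrn, with 6102 nt, had 0.11 (SE 0.036) and -1.31 (SE 0.037), and the former call was lost without ER whole-cell replicate 2 (0.08, adjusted p = 0.068 with edgeR). Tinagl1 and Npnt, basement membrane ligands of integrins and laminin, were at 1.69 and 1.32 on ER-marked and at -0.34 and -0.36 on cytosol-marked ribosomes. Their calls on cytosol-marked ribosomes were lost without cytosol ribosome-bound replicate 1 or cytosol whole-cell replicate 1 or 3 for Tinagl1 (-0.25, -0.27 and -0.15), and without cytosol whole-cell replicate 2 for Npnt (-0.26).

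**Figure D2:**
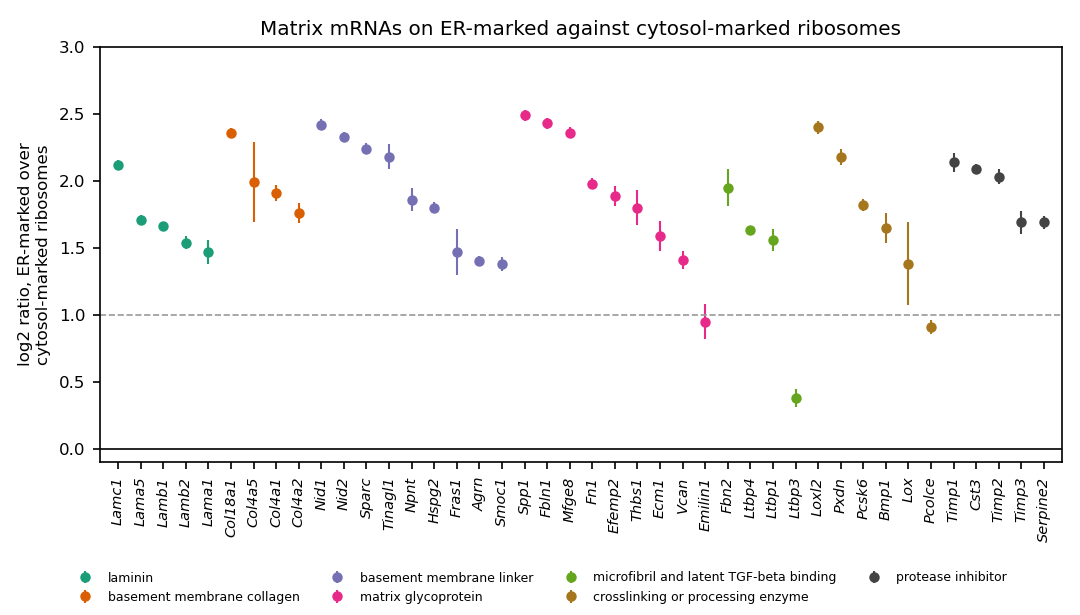
Log2 ratio of ER-marked over cytosol-marked ribosomes for the 42 tested matrix genes, by role and by size within it; points are estimates from the model of all libraries, bars are ± 1 SE, and the dashed line marks 2-fold. All points lie above 0, and Ltbp3, Pcolce and Emilin1 lie below the dashed line.

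Matrix glycoproteins of the interstitial and provisional matrix were higher on ER-marked than on cytosol-marked ribosomes in 9 of 9 tested genes, and 9 were also higher than in whole-cell RNA. On cytosol-marked ribosomes 7 were lower than in whole-cell RNA and 2, Emilin1 and Ecm1, did not pass the test.

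Spp1 was at 1725.7, 1742.9 and 1590.3 CPM on ER-marked ribosomes, the highest level of any matrix gene in any group, and at 292.9, 292.3 and 313.0 CPM on cytosol-marked ones. In whole-cell RNA it was at 377.9, 401.2 and 359.0 CPM and at 361.9, 366.8 and 380.7 CPM, which did not overlap either ribosome-bound group. ER-marked over cytosol-marked ribosomes gave a log2 ratio of 2.49 (SE 0.041), ER-marked ribosomes over whole-cell RNA 2.15 (SE 0.041) and cytosol-marked ribosomes over whole-cell RNA -0.30 (SE 0.040).

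Fn1, fibronectin, had the highest whole-cell CPM of the matrix genes, but a long coding sequence of 7431 nt. It was at 540.3, 577.5 and 537.8 CPM in ER and 519.0, 544.5 and 518.2 CPM in cytosol whole-cell RNA, and rose to 666.9, 693.2 and 703.5 CPM on ER-marked ribosomes (log2 0.32, SE 0.039). Cytosol-marked ribosomes held 179.9, 161.5 and 181.2 CPM, 3.03-fold less than whole-cell RNA. The ratio between both kinds of ribosome was 3.95-fold. In the shorter Fbln1, Mfge8 and Efemp2 it was 5.40-fold, 5.14-fold and 3.71-fold, and their ratios over whole-cell RNA on ER-marked ribosomes were 3.69-fold, 4.79-fold and 2.72-fold.

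Emilin1, an elastic fibre glycoprotein, had the smallest ER to cytosol ratio of this role. Its libraries were at 9.43, 9.14 and 9.71 CPM on ER-marked ribosomes and at 4.82, 4.03 and 5.76 CPM on cytosol-marked ones, 1.93-fold apart (log2 0.95, SE 0.13). Whole-cell libraries at 6.07, 4.62 and 7.03 CPM and at 5.98, 5.41 and 4.91 CPM overlapped the cytosol ribosome-bound group. Vcan, the proteoglycan versican, and Thbs1, thrombospondin 1, gave 2.65-fold and 3.49-fold. For Thbs1 the lower level on cytosol-marked ribosomes (log2 -0.50, SE 0.15) was lost without cytosol ribosome-bound replicate 2 (-0.37). Ecm1 on cytosol-marked ribosomes was at 0.24 (SE 0.13) against whole-cell RNA, and passed as higher without cytosol whole-cell replicate 3 (0.36) or ER ribosome-bound replicate 3 (0.29). Mfge8 was lower there by only 0.09 on the log2 scale (SE 0.038, adjusted p = 0.041 with edgeR), a call lost with DESeq2 (-0.05), under each scaling tried and without any 1 library except cytosol ribosome-bound replicate 3.

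Latent TGF-beta binding proteins hold the growth factor in the matrix, and fibrillin-2 (Fbn2) builds the microfibrils they attach to. The 4 genes were all higher on ER-marked than on cytosol-marked ribosomes, but this family held both the smallest ER to cytosol ratio and the lowest ratio over whole-cell RNA of all matrix genes.

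Ltbp3 was nearly even across the 4 groups, at 25.1, 27.3 and 24.1 CPM on ER-marked and 21.3, 17.8 and 19.6 CPM on cytosol-marked ribosomes. In whole-cell RNA it was at 23.9, 22.1 and 22.8 CPM with ER and 22.5, 20.5 and 22.2 CPM with cytosol targeting. The ER to cytosol ratio was 1.30-fold (log2 0.38, SE 0.068, adjusted p = 8.2e-06 with edgeR), with no overlap of those groups. Over whole-cell RNA it was 0.16 (SE 0.067, adjusted p = 0.044) on ER-marked ribosomes, a call that was lost with DESeq2 (adjusted p = 0.079) and without replicate 3 of cytosol ribosome-bound, 1 or 3 of cytosol whole-cell, 1 or 2 of ER ribosome-bound, or 2 or 3 of ER whole-cell RNA. The value furthest from the threshold was 0.10 (adjusted p = 0.28), without ER ribosome-bound replicate 2.

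Ltbp1 was lower than whole-cell RNA on both kinds of ribosome, the lowest of the 42 genes in either comparison. It was at 19.2, 21.1 and 17.7 CPM on ER-marked ribosomes and 36.8, 36.9 and 36.3 CPM in their whole-cell RNA, 1.89-fold lower (log2 -0.92, SE 0.065, adjusted p = 6.7e-15 with edgeR). Cytosol-marked ribosomes held 7.54, 6.39 and 5.87 CPM against 37.5, 35.8 and 37.2 CPM, 5.60-fold lower. Ribosome-bound libraries of the 2 targetings did not overlap either, and differed 2.94-fold. The annotation holds a principal Ltbp1 transcript with 4023 nt of coding sequence and a longer form with 5139 nt that starts elsewhere, and the counts do not tell them apart.

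Ltbp4, with 4998 nt, gave log2 ratios over whole-cell RNA of 1.27 (SE 0.035) on ER-marked and -0.38 (SE 0.036) on cytosol-marked ribosomes. Per kilobase of transcript, Ltbp4 exceeded Ltbp1 by a ratio of 5.49 ± 0.12 in ER whole-cell and 5.54 ± 0.25 in cytosol whole-cell RNA, and by 25.2 ± 1.8 and 24.0 ± 3.3 on ER-marked and cytosol-marked ribosomes (SD, n = 3), with no overlap between ribosome-bound and whole-cell libraries. Fbn2, with 8721 nt, was at 6.53, 7.19 and 7.75 CPM on ER-marked and 1.99, 1.86 and 1.72 CPM on cytosol-marked ribosomes. Its whole-cell libraries were at 6.45, 4.72 and 5.59 CPM and at 5.54, 4.77 and 4.64 CPM, and its 0.35 (SE 0.12) over whole-cell RNA on ER-marked ribosomes was lost when replicate 3 of ER ribosome-bound RNA (0.29) or replicate 2 of ER whole-cell RNA (0.25) was left out.

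Enzymes that process or crosslink the matrix outside the cell were higher on ER-marked than on cytosol-marked ribosomes in 6 of 6 genes, and 6 were higher than in whole-cell RNA. Loxl2, a lysyl oxidase that crosslinks collagen IV, was at 198.0, 204.1 and 211.0 CPM on ER-marked and 37.7, 36.4 and 42.0 CPM on cytosol-marked ribosomes, 5.27-fold apart. Whole-cell libraries lay between at 76.2, 82.3 and 76.0 CPM and at 75.9, 71.0 and 77.3 CPM. Pcolce, which enhances procollagen C-proteinase, had the smallest ratio here, with 121.9, 125.8 and 109.8 CPM on ER-marked against 68.1, 59.8 and 62.4 CPM on cytosol-marked ribosomes, 1.88-fold. Its whole-cell libraries, with a lowest value of 80.1 CPM with ER and of 76.5 CPM with cytosol targeting, were apart from both. Bmp1, the procollagen C-proteinase itself, Pxdn, the peroxidase that forms sulfilimine bonds in collagen IV, and the proprotein convertase Pcsk6 gave 3.14-fold, 4.54-fold and 3.53-fold between both kinds of ribosome. Lox, read with 9 to 30 counts per library, gave 2.61-fold (log2 1.38, SE 0.31).

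Protease inhibitors are among the shorter genes of the group, with coding sequences of 420 to 1191 nt. All 5 were higher by more than 2-fold on ER-marked ribosomes than on cytosol-marked ones and than in whole-cell RNA. Of all genes, 18.1% were called higher by more than 2-fold in the former comparison and 16.5% in the latter. Cst3 was at 353.1, 345.1 and 358.1 CPM on ER-marked and 82.8, 80.5 and 85.5 CPM on cytosol-marked ribosomes. Its whole-cell libraries, at 84.6, 90.4 and 83.7 CPM and at 91.1, 85.8 and 91.9 CPM, lay close to the cytosol-marked ones, those of cytosol targeting above them (log2 -0.11, SE 0.040, adjusted p = 0.019 with edgeR). Of the metalloprotease inhibitors, Timp1 was at 71.6, 71.3 and 63.1 CPM on ER-marked and 15.3, 15.1 and 16.2 CPM on cytosol-marked ribosomes, with 18.6 to 23.3 CPM over the 6 whole-cell libraries. Timp3 was at 24.8, 27.7 and 27.2 CPM and 7.08, 9.49 and 8.13 CPM on ribosomes and at 9.00, 8.36 and 8.59 CPM and 8.62, 8.98 and 7.93 CPM in whole-cell RNA. Timp1 thus had a whole-cell level above cytosol-marked ribosomes, while that of Timp3 overlapped them. Timp2 was also lower on cytosol-marked ribosomes (-0.17, adjusted p = 0.023 with edgeR). The calls of Cst3 and Timp2 were lost with DESeq2 (adjusted p = 0.17 and 0.12), with its size factors in edgeR (0.15 and 0.084) and without any 1 library other than replicates 1 and 3 of cytosol ribosome-bound and replicate 1 of ER whole-cell RNA.

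Serpine2, which encodes protease nexin-1, was higher than whole-cell RNA on both kinds of ribosome. It was at 122.4, 113.0 and 118.3 CPM on ER-marked ribosomes and 18.9, 16.6 and 18.9 CPM in their whole-cell RNA, 6.47-fold (log2 2.69, SE 0.055, adjusted p = 9.5e-31 with edgeR), the largest enrichment of the 42 genes. On cytosol-marked ribosomes it was at 37.2, 34.7 and 37.9 CPM against 17.1, 17.6 and 18.9 CPM, 2.05-fold (log2 1.04, SE 0.060, adjusted p = 6.8e-17). No ribosome-bound library overlapped a whole-cell one. ER-marked exceeded cytosol-marked ribosomes 3.22-fold, an ordinary value among these genes.

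Across the 42 genes, the ratio of ribosome-bound over whole-cell RNA fell with coding length on both kinds of ribosome, while the ratio between both kinds of ribosome followed length less closely. Spearman's rho with coding length, a description across genes that share the libraries and are not replicates, was -0.80 for cytosol-marked ribosomes over whole-cell RNA, -0.75 for ER-marked ribosomes over whole-cell RNA and -0.19 for ER-marked over cytosol-marked ribosomes. By library it was -0.81 to -0.76 for cytosol-marked and -0.77 to -0.74 for ER-marked ribosomes. Over all 14098 tested coding genes the same values were -0.39, -0.29 and 0.05, and over 2584 other genes with an N-terminal segment -0.33, -0.22 and 0.01. Of those 2584, 1433 also have a later hydrophobic segment of the kind that spans a membrane, as 6 of the 42 matrix genes do, and the other 1151 gave -0.3, -0.12 and 0.06.

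On ER-marked ribosomes over whole-cell RNA, the median log2 ratio was 1.88 for the 6 matrix genes with under 1000 nt of coding sequence, 1.38 for 10 with 1000 to 2000 nt, 1.14 for 8 with 2000 to 4000 nt, 1.03 for 11 with 4000 to 6000 nt and 0.11 for 7 with over 6000 nt. In the same classes the other genes with an N-terminal segment (885, 1044, 503, 93 and 59 genes) had medians of 1.38, 1.23, 1.07, 0.73 and 0.23. The ones with an N-terminal segment alone (443, 496, 165, 30 and 17 genes) had medians of 1.2 and 1.27 in the classes under 1000 and of 1000 to 2000 nt, and of 0.52 and -0.12 in those of 4000 to 6000 and over 6000 nt, the last from fewer than 20 genes. Vcan is counted at 1000 to 2000 nt by its principal coding sequence of 1965 nt, but its longest annotated one has 10062 nt and the counts do not tell them apart. By longest coding sequences the class over 6000 nt held 8 matrix genes with a median of 0.15, and that of 1000 to 2000 nt 9 with 1.44. On cytosol-marked ribosomes over whole-cell RNA the matrix medians were -0.23, -0.35, -0.52, -1.04 and -1.6, those of the other genes with any N-terminal segment -0.11, -0.28, -0.41, -0.60 and -0.85, and those with such a segment alone -0.06, -0.2, -0.37, -0.34 and -0.83. Over all tested coding genes they were 0.09, -0.02, -0.23, -0.57 and -0.9, and over genes with no segment 0.14, 0.05, -0.15, -0.47 and -0.65. Lower values in the longer classes were thus not particular to matrix genes. Between both kinds of ribosome the matrix medians were 2.11, 1.64, 1.81, 1.91 and 1.71, those of the other genes with any N-terminal segment 1.46, 1.56, 1.48, 1.31 and 1.06, and those with such a segment alone 1.17, 1.52, 1.36, 1.16 and 0.62. For either ribosome-bound group over whole-cell RNA, medians fell from each class to the next in the matrix genes and in the other genes with any N-terminal segment, but not at every step in those with such a segment alone. The matrix values over 6000 nt were all at or below 0.35 on ER-marked ribosomes. Whether the sets differ was not tested. The matrix genes are long, with a median coding length of 3624 nt against 1383 nt over tested coding genes, and cysteine-rich, with a median of 5.03% of residues against 1.92%.

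**Figure D3:**
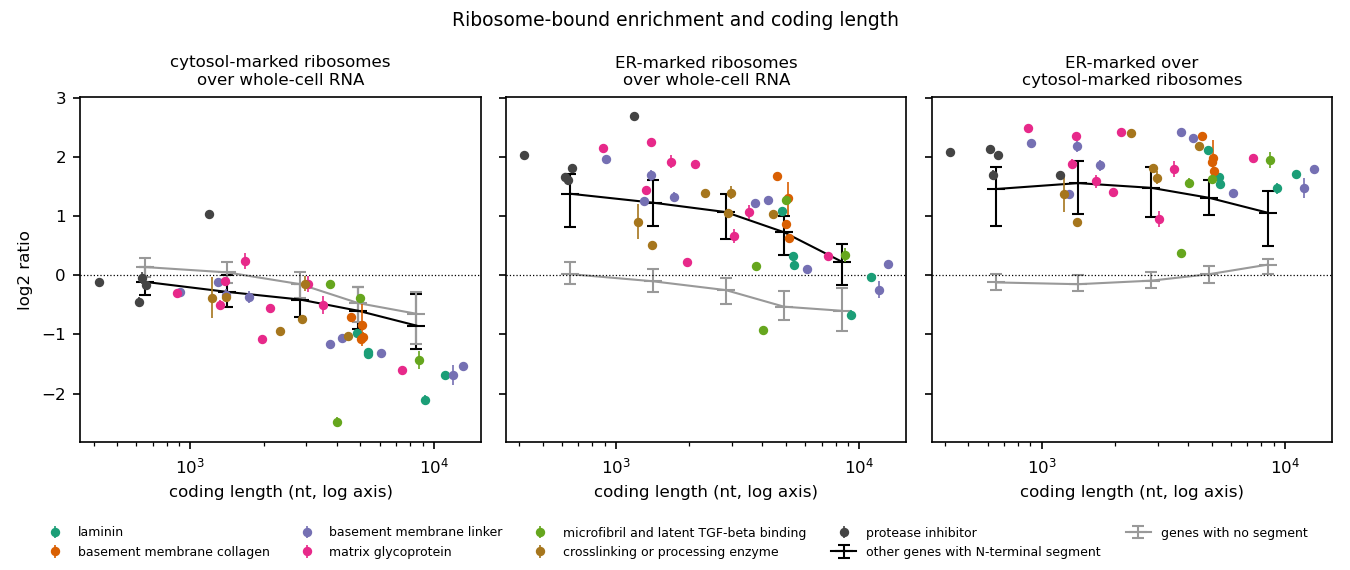
Log2 ratio against coding length (log axis, nt) for cytosol-marked ribosomes over whole-cell RNA (left), ER-marked ribosomes over whole-cell RNA (middle) and ER-marked over cytosol-marked ribosomes (right). Points are the 42 matrix genes with ± 1 SE, lines join medians by length class of other genes with any N-terminal segment (black) and of genes with no hydrophobic segment (grey), and bars on the lines are quartiles; matrix genes fall with length in the left and middle panels (rho -0.80 and -0.75) and less so on the right (-0.19).

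Genes that work with the matrix showed where the ER to cytosol difference held beyond the matrix proteins. Receptors of the matrix, which are membrane proteins such as integrins and syndecans, were higher on ER-marked than on cytosol-marked ribosomes in 25 of 25 tested genes (median 1.91, against 29.1% of all genes called higher), from 0.82 in Itga7 to 2.56 in the glypican Gpc3. Enzymes and chaperones that hydroxylate and fold collagen in the ER were higher in 19 of 19, with a median of 2.22, from 1.68 in P3h3 to 2.57 in P3h2. The median for matrix-degrading proteases was 1.83 with 20 of 22 higher. Adamts4 (0.30, SE 0.20) and Mmp24 (0.31, SE 0.22) did not pass, and Mmp17 was highest at 2.24. Enzymes of glycosaminoglycan assembly were higher in 24 of 25 and lower in 1, Ugdh, the cytosolic enzyme that makes UDP-glucuronate (-0.36, SE 0.053). TGF-beta ligands and receptors were higher in 9 of 9, from 1.26 in Lrrc32 to 2.30 in Tgfbr3.

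Lists of mostly cytosolic proteins looked otherwise. Of 18 cytosolic partners of matrix receptors, such as talin and vinculin, 2 were higher and 9 lower on ER-marked ribosomes (median -0.08), from -0.50 in Zyx to 0.21 in Src, where 24.6% of all genes were called lower. Of 17 genes for the export of large cargo from the ER, 6 were higher and 9 lower (median -0.14). The 6 were the cargo receptors and membrane proteins Mia2, Mia3 and Surf4 (1.10, 1.73 and 2.08), the membrane-bound transcription factor Creb3l2 (1.20), and the small GTPases Sar1a and Sar1b (1.18 and 1.66), which are cytosolic proteins that bind the ER membrane. The lowest was the coat subunit Sec13 (-0.44, SE 0.042), and 9 genes of the coat and its partners were called lower. These directions depended on the scaling: with libraries scaled to cytosolic proteins, 8 of the partners were higher and 5 lower (median 0.11), and 7 of the export genes were higher and 2 lower (median 0.06).

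**Figure D4:**
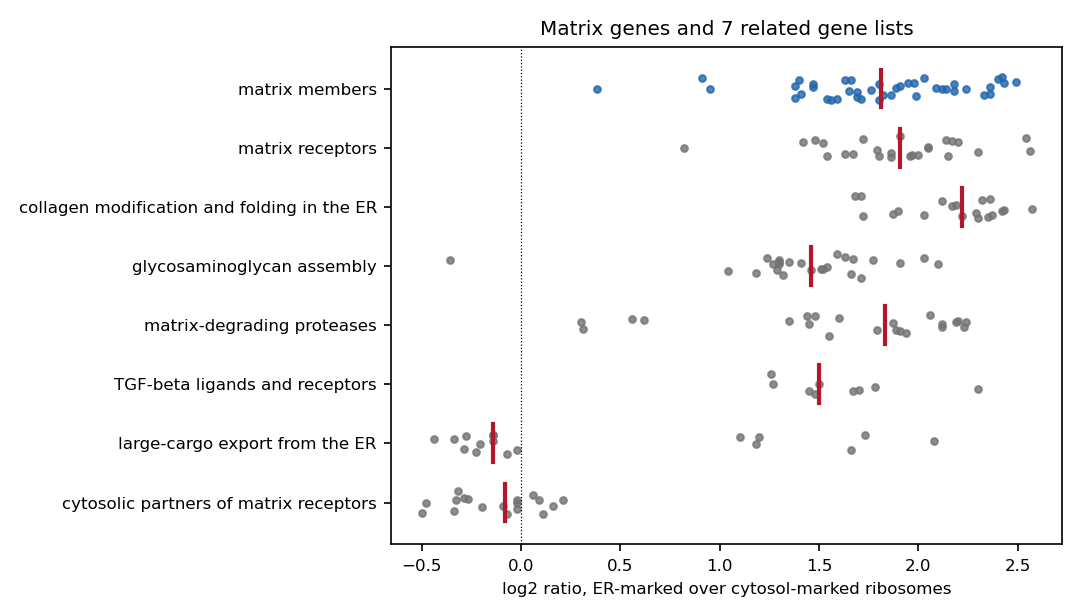
Log2 ratio of ER-marked over cytosol-marked ribosomes for each tested gene of the matrix group (blue) and of 7 related lists (grey); red bars are medians and vertical scatter only separates points. The lists of cytosolic partners and of export genes have medians of -0.08 and -0.14 (0.11 and 0.06 when scaled to cytosolic proteins), and the other lists medians of 1.46 to 2.22.

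Markers of the labelled cell type were present in every library: 8 of 8 pluripotency genes were over 1 CPM in each group, with a summed level of 4485.1 to 5512.6 CPM. Lists of genes that mark matrix-rich or other cell types had lower sums than the pluripotency genes in every group. Endoderm markers summed to 24.2 to 28.7 CPM in the other groups and 38.8 to 44.1 CPM on ER-marked ribosomes (6 or 7 of 10 genes over 1 CPM), and trophoblast markers to 13.5 to 21.2 CPM, with Elf5 at 0 in both ribosome-bound groups. Fibroblast markers summed to 39.3 to 44.1 CPM in 3 groups and 97.0 to 101.8 CPM on ER-marked ribosomes (4 or 5 of 9 over 1 CPM), with Lum at 0 in the other 3 groups and Postn at 0 in cytosol whole-cell RNA. Endothelial markers, of which 2 of 4 were over 1 CPM in each group, had the highest sums of these lists. Their sums were 83.5 to 168.1 CPM in the other groups and 336.4 to 348.6 CPM on ER-marked ribosomes. Most of this was Pecam1, which pluripotent cells also express. The fibroblast, endothelial and endoderm lists hold secreted or membrane proteins (Col1a1, Thy1, Pecam1, Pdgfra), and their part in the matrix results was not tested. Between the whole-cell groups the sums lay within 24.2 to 26.1 CPM for endoderm and 40.1 to 44.1 CPM for fibroblast markers.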

How the data were processed

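The deposited values are raw read counts per Ensembl gene, with a separate file for each library. Per the submitters' processing notes, STAR 2.7.9a, HTSeq 0.11.2 and DESeq2 (no version given) were used on GRCm39. The annotation release, strand setting and multimapping rule, not given in the sources used here, leave counts of overlapping or antisense genes uncertain. Rows for reads outside genes (8.75% to 12.54% of reads) were left out of library sizes and tests. The matrix genes were matched by symbol through GENCODE M21 (52083 of 55416 identifiers matched; the rest held 0.41% of counts). M21 is built on GRCm38, so no coordinates are printed, and its principal transcripts gave coding lengths, transcript lengths, hydropathy and the printed coding starts.

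Genes were filtered with filterByExpr by group (16221 kept) and scaled with TMM factors. A model with 1 mean per group was fitted to all 12 libraries in edgeR 4.0.16 (R 4.3.3), and 5 contrasts were tested 2-sided with its quasi-likelihood test, with p-values adjusted by Benjamini-Hochberg over the whole table and a threshold of 0.05. Levels are TMM-scaled CPM computed from the counts, log2 ratios come from the model, and SE is the size of that ratio divided by the root of the test's F. The biological coefficient of variation was 3.6%. Depth was 21.1 to 26.9 M counts, and errors cover counting and the spread between replicate libraries, not a PCR bias that the libraries share.

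Genes with values in every library were, per role, those with the largest and smallest ER to cytosol ratio. They also include the 3 longest and 3 shortest, the 3 highest in whole-cell CPM, and those lower on ER-marked ribosomes than in whole-cell RNA. Of these, Pcolce and Timp1 have their whole-cell values given only as lowest values or a range. From the related lists, the extremes and exceptions are named. Other genes are named to complete a role. The members, lists and tests were chosen with earlier results of these data known. Alternatives were RLE factors, DESeq2 1.42.0, no low-count filter, scaling to 73 listed cytosolic genes (74 gene rows), leaving out mitochondrially encoded genes, a replicate block, only the groups compared, leaving out each library, and other lengths.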

Additional observations from a re-analysis of the deposited data

Results flagged for a closer look

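The effect of targeting was tested as an interaction, as ER-marked ribosomes over whole-cell RNA minus cytosol-marked ribosomes over whole-cell RNA. It was higher for 42 of 42 tested matrix genes (edgeR, adjusted p under 0.05), where 24.8% of all genes were called higher, with a median of 1.71 and values from 0.31 in Ltbp3 to 2.46 in Spp1. Of the matrix genes, 30 were called higher on ER-marked and lower on cytosol-marked ribosomes than in whole-cell RNA, opposite directions in the contrasts of both targetings. For cytosol-marked ribosomes over whole-cell RNA, DESeq2 called 31 matrix genes where edgeR called 35. Col4a5, Mfge8, Timp2 and Cst3, which are among the 30, lost that call with DESeq2. How many of all genes had both calls was not counted. The calls of the interaction for Lox (1.30, SE 0.46) and Ltbp3 (0.31, SE 0.096) were the least stable: that of Lox was lost with DESeq2 (1.27, adjusted p = 0.056) and both were lost without some single libraries (Lox 1.11 to 1.19, Ltbp3 0.19 to 0.25).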

How the results depend on the processing

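Scaling to cytosolic proteins gave 7162 higher and 991 lower genes for ER-marked over cytosol-marked ribosomes, 2529 lower genes for ER-marked ribosomes over whole-cell RNA and 577 lower for the difference of enrichments, over all genes; it turned Lama5 on ER-marked ribosomes over whole-cell RNA to 0.19 and raised the members' medians to 2.00, 1.37 and 1.91. Without a low-count filter 7 genes were lower in ER than in cytosol whole-cell RNA, and leaving out single libraries gave 0 to 2. On cytosol-marked ribosomes, leaving out single libraries gave 1 to 2 matrix genes higher than whole-cell RNA, the additional gene being Ecm1. Values near 0 there changed sign: Timp3 was at 0.00 without the filter, 0.01 without mitochondrially encoded genes, 0.01 with only the groups compared and -0.11 to 0.05 without single libraries, where Emilin1 ran from -0.30 to 0.02 and Bmp1 from -0.21 to 0.02. Without single libraries, rho with coding length for ER-marked over cytosol-marked ribosomes was -0.23 to -0.18. With total transcript length in place of coding length, rho was -0.12 for ER-marked over cytosol-marked ribosomes, -0.71 for ER-marked ribosomes over whole-cell RNA and -0.76 for cytosol-marked ribosomes over whole-cell RNA. With the longest coding sequence, a choice made after seeing the data, it was -0.26, -0.80 and -0.83.

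Between ribosome-bound and whole-cell RNA of one targeting, deviations of same-numbered samples correlated at -0.006 to 0.268 with ER and 0.058 to 0.100 with cytosol targeting. Differently numbered ones gave -0.269 to 0.042 and -0.150 to 0.059. Between targetings, same-numbered samples gave -0.211 to 0.099. Because the labels do not say that a number marks a lysate, the main model did not pair samples, and blocks are given as alternatives. With the replicate block the members gave 42 higher for ER-marked over cytosol-marked ribosomes, 38 higher and 2 lower for ER-marked ribosomes over whole-cell RNA, 33 lower and 1 higher for cytosol-marked ribosomes, where Mfge8 missed the threshold (-0.09, adjusted p = 0.053 with edgeR), 0 in whole-cell RNA and 42 for the difference of enrichments. A block by lysate gave 38, 2, 34, 1 and 42, with Col4a5 lost (-0.85, adjusted p = 0.052 with edgeR) and Ltbp3 gained (-0.15, adjusted p = 0.04) on cytosol-marked ribosomes. Rare genes (Col4a5, Lox, Fras1) limit the precision of single values.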
